A study of Mus musculus with 2 samples.

Results

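The genes described here are 34 members of the interferon response and of antigen presentation, measured in islets isolated from mice after pancreatectomy or sham operation. They were chosen by name, with earlier results of these data known. Taken were all probes whose gene symbol in the authors' deposited table is a member. This gave 42 probes, 1 for each of 26 genes and a pair for each of 8, out of 24278 gene symbols on the array. Of the 34 genes, 32 passed the filter on dim probes (a signal well above background on 4 or more arrays) and were tested among 30870 features, and Mx1 and Oas3 were not.

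The tested mice had a 60% pancreatectomy and the controls a sham operation, and the islets of both groups were taken on day 3. All mice were C57BL/6J and 8 weeks old, and no other treatment or allele is labelled. Each group is 1 sample described as 4 replicates, so 4 pancreatectomy arrays were set against 4 sham arrays. Whether the replicates are separate animals or islet preparations is not stated, so p-values measure the spread between arrays, which may be partly technical. The labels do not say how many mice were pooled.

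Interferons are secreted proteins that cells release on sensing viral nucleic acid or danger. They act through surface receptors and JAK kinases on STAT and IRF factors, which switch on antiviral genes and the genes that load peptides onto MHC class I. In islets, interferon signalling and high class I on beta cells are known from type 1 diabetes and its mouse models. Many of these genes are also used by immune and stromal cells, and in whole-islet RNA fewer cells of a type and less RNA per cell cannot be told apart.

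The islet label matched its defining markers. Ins1, Ins2, Iapp, Gcg, Sst, Ppy, Pdx1 and Chga were well above background on all 8 arrays, and their summed signal ran from 1945900 to 3474500 on pancreatectomy arrays and from 2005800 to 4619000 on sham arrays. The 75th percentile of processed signal was 280 to 640 on pancreatectomy arrays and 178 to 655 on sham arrays, and sham replicate 3 was dimmest, with 48.1% of probes well above background. Transcripts of other tissues stood out on single arrays. The mean of 8 hepatocyte markers lay 5.22 and 4.39 above the sham mean (log2) on pancreatectomy replicates 1 and 4, and 5.02 above it on sham replicate 4. The mean of 5 measured B and plasma cell markers lay 6.04 above the sham mean on pancreatectomy replicate 3, and that of 6 measured gut epithelium markers 2.83 above it on the same array. There Fabp2 was 12.83, against a sham mean of 5.96, but Vil1 was 12.86, against 13.06. The hepatocyte marker Fga was 6.41 and 6.05 on pancreatectomy replicates 1 and 4, against a sham mean of 6.45. The mean of 5 measured acinar markers ran from -1.82 on sham replicate 3 to 1.30 on pancreatectomy replicate 3 and sham replicate 1. Values without single arrays are given below for the members whose change moved most with them.

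None of the members differed between the groups at the threshold used. Of 32 tested members, 0 passed an adjusted p of 0.05 in limma (Benjamini-Hochberg over all 30870 features), and the smallest adjusted p among them was 0.399. Over all features 195 passed, which is 0.632%, with 169 higher (0.547%) and 26 lower (0.0842%) after pancreatectomy. At an unadjusted p under 0.05 there were 2 members, Ifit2 with a higher and Cd274 with a lower signal, or 6.25% of members against 10.5% of all features (4.22% higher and 6.29% lower).

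The changes of the members were small and ran both ways. On the log2 scale, pancreatectomy minus sham, they lay between -0.42 for Cd274 and 1.00 for Irf8, with 19 of 32 above 0, or 59.4% against 45.1% of all features. Their median was 0.05, against -0.04 over all features. With median scaling the median of the members was -0.08 and that of all features -0.16, so the sign of a small change rests on the scaling. The 95% interval of the change stayed within 1 on the log2 scale in either direction for 26 of 32 members (81.2%, against 73.8% of all features). It reached past 1 for Irf8, Ifit2, Oas2, Oasl1, Tap1 and B2m; for these 6 the arrays do not bound the change within a doubling. Only for Cd274 did the 4 pancreatectomy arrays all lie to one side of the 4 sham arrays. That is 1 of 32 members, where the groups did not overlap for 8.29% of all features.

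**Figure D1:**
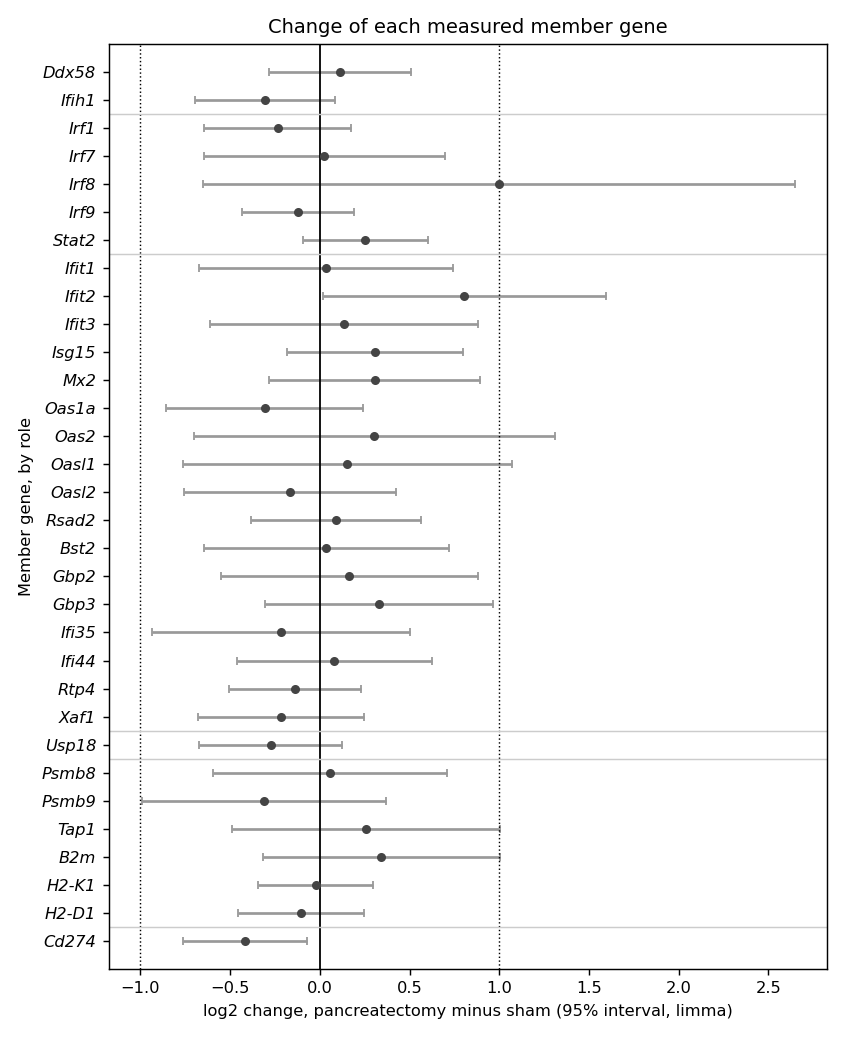
Log2 change of each of the 32 measured members, pancreatectomy minus sham, with its 95% interval from limma (4 arrays against 4). Rows are ordered by role with sensors at the top, and the dotted lines mark a change of 1 in either direction. Most intervals include 0, the widest is that of Irf8 (-0.65 to 2.65), and those of Ifit2 (0.02 to 1.59) and Cd274 (-0.76 to -0.07) lie to one side of it before adjustment.

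Ddx58 and Ifih1 encode RIG-I and MDA5, the cytosolic helicases that sense viral double-stranded RNA. Ddx58 had a normalized log2 signal of 9.79, 9.48, 9.80 and 9.34 on pancreatectomy replicates 1 to 4, against 9.37, 9.80, 9.43 and 9.36 on sham replicates 1 to 4. The groups overlapped, and its change was 0.11 ± 0.17 (SE, 4 arrays against 4; limma adjusted p = 0.842). A second, dimmer Ddx58 probe gave -0.21. Ifih1 had 9.14, 9.23, 9.39 and 9.31 on pancreatectomy arrays, against 9.72, 9.77, 9.15 and 9.65 on sham arrays. Its signal was lower on the pancreatectomy arrays than on every sham array but replicate 3, with a change of -0.30 ± 0.17 (limma adjusted p = 0.580). The second Ifih1 probe gave -0.77 and was above background on 1 of 4 pancreatectomy and 3 of 4 sham arrays.

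Among the transcription factors, Irf9 and Stat2 are parts of the complex that binds interferon-stimulated response elements. Irf9 had a change of -0.12 ± 0.14, and Stat2 had 9.995, 10.02, 9.88 and 9.85 on pancreatectomy arrays, against 9.41, 9.90, 9.60 and 9.82 on sham arrays. The Stat2 groups overlapped in a narrow band, with a change of 0.25 ± 0.15 (limma adjusted p = 0.602). Irf1, a factor induced by interferon gamma, had 11.89, 11.99, 12.10 and 12.24 on pancreatectomy arrays, against 11.94, 12.64, 12.38 and 12.19 on sham arrays. Its change was -0.24 ± 0.18, and the groups overlapped (limma adjusted p = 0.679). Irf7, which amplifies type I interferon production, had a change of 0.03 ± 0.30.

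Irf8 had the largest difference and the widest spread of all members. It is a factor of macrophages, dendritic cells and B cells. Irf8 had 9.06, 7.34, 11.14 and 7.69 on pancreatectomy replicates 1 to 4, against 7.50, 8.08, 7.79 and 7.87 on sham replicates 1 to 4. Pancreatectomy replicates 1 and 3 were above every sham array, replicate 4 lay within the sham range and replicate 2 below it. The change was 1.00 ± 0.73 (limma adjusted p = 0.663), or 0.22 without pancreatectomy replicate 3 and -0.30 when only pancreatectomy replicates 2 and 4 were set against the 4 sham arrays.

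Of 19 antiviral effectors, 17 were measured and 0 passed, with changes from -0.31 for Oas1a to 0.81 for Ifit2 and a median of 0.09. The Ifit proteins bind viral RNA and block its translation. Ifit2 had 5.78, 4.34, 5.29 and 4.71 on pancreatectomy arrays, against 4.48, 4.59, 3.53 and 4.30 on sham arrays. Pancreatectomy replicates 1, 3 and 4 were above all sham arrays and replicate 2 was within the sham range. The probe is dim, above background on 4 of 4 pancreatectomy and 3 of 4 sham arrays. Its value on sham replicate 3, 3.53, lies under the lowest signal well above background on that array, 5.18. The change was 0.81 ± 0.35 (limma adjusted p = 0.467), 0.56 without pancreatectomy replicate 1 and 0.22 with normexp background correction. Ifit1 and Ifit3, whose probes lie in the same stretch of chromosome 19 as that of Ifit2, had changes of 0.03 ± 0.31 and 0.13 ± 0.33, or -0.27 and -0.13 without pancreatectomy replicate 1. Ifit1 was 7.47 on pancreatectomy replicate 1 and 6.15 to 6.42 on the other pancreatectomy arrays, against 6.08 to 6.89 on sham arrays.

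The oligoadenylate synthetases of Oas1a, Oas2 and Oas3 activate RNase L on double-stranded RNA. Oas2 had 7.58, 5.63, 5.73 and 6.00 on pancreatectomy arrays, against 6.17, 5.86, 6.43 and 5.28 on sham arrays. Pancreatectomy replicate 1 was the highest of the 8 arrays, and the change was 0.30 ± 0.44, or -0.15 without that array. Oas1a had -0.31 ± 0.24, Oasl1 0.15 ± 0.40 and Oasl2 -0.17 ± 0.26, and each overlapped between the groups. The second Oas1a probe gave -0.04. Oas3 was above background on 0 of 4 pancreatectomy and 2 of 4 sham arrays and was not tested.

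Isg15 is a ubiquitin-like modifier and Usp18 the protease that removes it and damps receptor signalling. Isg15 had 9.52, 8.69, 9.32 and 8.92 on pancreatectomy arrays, against 9.14, 8.71, 8.71 and 8.66 on sham arrays. The change was 0.31 ± 0.22, or 0.17 without pancreatectomy replicate 1, and the groups overlapped, while a second and dimmer probe of Isg15 gave -0.15. Usp18 had -0.27 ± 0.18, with 9.97 to 10.37 on pancreatectomy arrays and 10.17 to 10.77 on sham arrays.

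The guanylate-binding proteins are GTPases that attack intracellular pathogens. Gbp3 had 7.94, 7.32, 8.25 and 7.18 on pancreatectomy arrays, against 7.16, 7.30, 7.84 and 7.07 on sham arrays. Its 2 highest arrays were pancreatectomy replicates 3 and 1, the next was sham replicate 3, and the change was 0.33 ± 0.28 (limma adjusted p = 0.708), or 0.14 without pancreatectomy replicate 3. Gbp2 too was highest on pancreatectomy replicates 3 and 1, with 8.01, 7.07, 8.51 and 7.19, against 7.61, 7.48, 7.73 and 7.31 on sham arrays, and a change of 0.17 ± 0.32, or -0.11 without pancreatectomy replicate 3.

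The other effectors gave no larger differences. Ifi35, which binds other induced proteins in the cytoplasm, had 9.92, 10.04, 10.25 and 10.001 on pancreatectomy arrays, against 9.75, 10.13, 11.29 and 9.91 on sham arrays. Sham replicate 3, the dimmest array, stood above the rest, and the change was -0.22 ± 0.32, or 0.12 without it. Rsad2, the radical enzyme viperin, had 0.09 ± 0.21, Bst2, the tether that holds budding virus at the membrane, 0.04 ± 0.30, and Mx2, a dynamin-like GTPase, 0.31 ± 0.26, or 0.12 without pancreatectomy replicate 1. Rtp4 had -0.14 ± 0.16 and Ifi44 0.08 ± 0.24. Xaf1, a partner of the apoptosis inhibitor XIAP, had -0.22 ± 0.20, and its dimmer probe, above background on 2 of 4 pancreatectomy and 2 of 4 sham arrays, gave 0.59. Mx1, another dynamin-like GTPase and one whose gene is disrupted in most laboratory strains, C57BL/6J among them, had 4.86, 1.91, 3.28 and 2.34 on pancreatectomy arrays, of which 2 were above background. On sham arrays Mx1 had 2.46, 3.02, 3.06 and 2.29, with 1 above background.

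The start regions of several of these genes carry the element through which interferon acts, and they are shown so that the array values can be read beside it. The letters searched on both strands were a core of the interferon-stimulated response element (ISRE), TTTC, then any 2 letters, then TTTC, which on the other strand is GAAA, any 2 letters, GAAA. They were searched from 250 bases before to 50 after the annotated start (RefSeq, GRCm38.p6). Of 29 members with such a window, 13 held them (44.8%), against 3.99% of 27025 genes. The gamma-activated sequence TTCNNNGAA, which reads the same on both strands, was in the window of 7 of 29 members (24.1%), against 9.55% of all genes. A match is a string of letters, not evidence of binding. Below, 170 bases before the start are printed 5′ to 3′ on the gene's strand, with ISRE letters in capitals (for Irf8 the gamma-activated letters), for genes whose values by array are described here. Overlapping matches run together in Isg15 and Gbp3. The Irf8 window holds 2 gamma-activated matches, and the first, cut by the start of the printed stretch, is left in lower case.
Ifit1, chr19:34640719-34640888, + strand: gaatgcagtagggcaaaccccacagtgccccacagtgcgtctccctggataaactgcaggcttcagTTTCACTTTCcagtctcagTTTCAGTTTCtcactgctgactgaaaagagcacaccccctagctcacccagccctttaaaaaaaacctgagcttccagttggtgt
Ifit3, chr19:34583359-34583528, + strand: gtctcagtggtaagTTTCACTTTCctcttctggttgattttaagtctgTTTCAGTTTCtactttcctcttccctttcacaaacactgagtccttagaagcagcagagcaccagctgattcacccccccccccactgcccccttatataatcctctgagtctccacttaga
Isg15, chr4:156200819-156200988, - strand: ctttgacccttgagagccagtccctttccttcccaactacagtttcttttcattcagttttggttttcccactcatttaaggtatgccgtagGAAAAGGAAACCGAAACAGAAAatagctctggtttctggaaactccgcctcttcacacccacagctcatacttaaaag
Gbp3, chr3:142559874-142560043, + strand: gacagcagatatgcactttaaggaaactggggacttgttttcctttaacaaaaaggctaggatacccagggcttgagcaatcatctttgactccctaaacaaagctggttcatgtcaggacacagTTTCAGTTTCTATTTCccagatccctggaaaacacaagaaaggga
B2m, chr2:122147517-122147686, + strand: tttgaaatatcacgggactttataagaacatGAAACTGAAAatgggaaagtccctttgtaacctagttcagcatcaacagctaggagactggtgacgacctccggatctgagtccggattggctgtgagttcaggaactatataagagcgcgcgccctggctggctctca
Irf8, chr8:120736188-120736357, + strand: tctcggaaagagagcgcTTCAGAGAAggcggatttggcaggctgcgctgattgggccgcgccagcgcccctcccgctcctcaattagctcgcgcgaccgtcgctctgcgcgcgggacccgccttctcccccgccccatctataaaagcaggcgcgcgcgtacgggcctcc

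Ifit1 and Ifit3 each hold a pair of ISRE cores, which begin at -104 and -85 and at -156 and -122 from the start. Both genes were highest on pancreatectomy replicate 1. The other members with 2 or more matches did not share 1 highest array. It was pancreatectomy replicate 1 for Isg15, pancreatectomy replicate 3 for Gbp3, and sham replicate 3 for Oas1a and Bst2. Over all features, the highest array was sham replicate 3 for 29%, pancreatectomy replicate 1 for 7% and pancreatectomy replicate 3 for 7.11%. The core of B2m begins at -139. Irf8, H2-K1, H2-D1, Tap1, Psmb9 and Cd274 had no ISRE letters in their windows. The windows of Irf8 and Psmb8 held the gamma-activated letters and those of H2-K1, H2-D1, Tap1, Psmb9 and Cd274 did not.

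Antigen presentation by MHC class I needs the immunoproteasome, which cuts peptides (Psmb8, Psmb9), the peptide transporter (Tap1), the class I heavy chains (H2-K1, H2-D1) and their light chain (B2m). All 6 were measured and 0 passed. The heavy chains overlapped between the groups. H2-K1 had 14.75, 15.07, 15.10 and 15.14 on pancreatectomy arrays, against 15.01, 15.11, 15.02 and 15.01 on sham arrays. Its change was -0.02 ± 0.14, with a 95% interval of -0.34 to 0.30, and its second probe gave -0.24. H2-D1 had -0.10 ± 0.15, with an interval of -0.46 to 0.25. Class I genes are close in sequence, so a probe of either may also bind transcripts of related class I genes.

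B2m differed more between the arrays of the pancreatectomy group than between the groups. It had 13.66, 12.68, 14.14 and 13.19 on pancreatectomy replicates 1 to 4, against 13.20, 13.02, 12.89 and 13.19 on sham replicates 1 to 4. Pancreatectomy replicates 1 and 3 were the highest 2 arrays and replicate 2 the lowest of the 8. Its change was 0.34 ± 0.29 (limma adjusted p = 0.707), or 0.10 without pancreatectomy replicate 3. Tap1 had 7.05, 6.08, 7.63 and 6.59 on pancreatectomy arrays, against 6.38, 6.85, 6.20 and 6.89 on sham arrays. Here too pancreatectomy replicate 3 was highest and replicate 2 lowest, and the change was 0.26 ± 0.33, or -0.0061 without replicate 3.

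The immunoproteasome subunits had the same high array. Psmb9 had 10.03, 9.76, 10.95 and 9.96 on pancreatectomy arrays, against 9.93, 10.65, 10.90 and 10.49 on sham arrays. All pancreatectomy arrays but replicate 3 were lower than 3 of the 4 sham arrays, and the change was -0.31 ± 0.30 (limma adjusted p = 0.742), or -0.57 without replicate 3. Psmb8 had 10.86 on pancreatectomy replicate 3 and 9.47 to 9.95 on the others, against 9.71 to 10.23 on sham arrays, with a change of 0.06 ± 0.29, or -0.21 without replicate 3. The probes of Tap1, Psmb8 and Psmb9 lie close together in the MHC on chromosome 17, at 34330854 to 34330913, 34337771 to 34337830 and 34319174 to 34319233 (mm9).

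Cd274 encodes PD-L1, the checkpoint ligand that restrains T cells and that interferon gamma induces. Cd274 had 8.24, 8.60, 8.74 and 8.67 on pancreatectomy arrays, against 9.04, 9.03, 8.92 and 8.93 on sham arrays. Every pancreatectomy array was below every sham array, which held for 5.3% of all features in this direction. The change was -0.42 ± 0.15, with an unadjusted interval of -0.76 to -0.07, and it did not pass (limma adjusted p = 0.399). By slide row it was -0.61 and -0.22. It kept its sign in each of 22 alternatives, between -0.61 and -0.22, and passed in none of those with a test. As the groups did not overlap, the sign could not turn where arrays were only left out or weighted. Its probe lies on chromosome 19 at 29462363 to 29462422 (mm9).

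**Figure D2:**
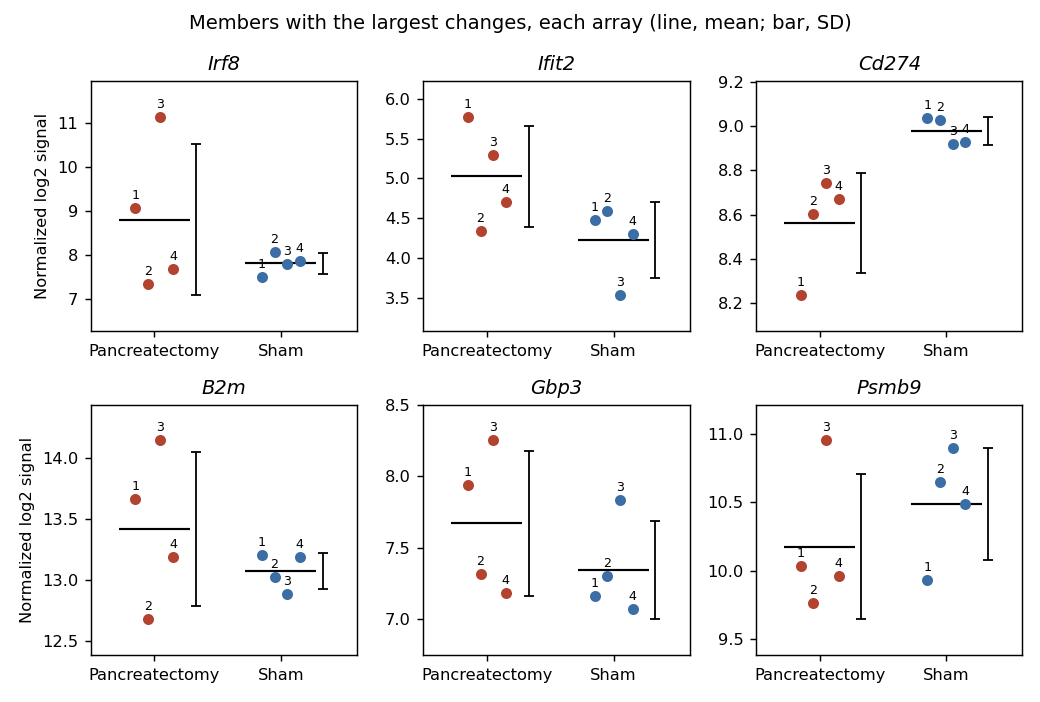
Normalized log2 signal of the 6 members with the largest absolute change, on 4 pancreatectomy arrays (left, red) and 4 sham arrays (right, blue). Points carry the replicate number, lines are group means and bars are SD. Irf8, B2m and Gbp3 have their 2 highest values on pancreatectomy replicates 1 and 3, and Cd274 is the member whose groups do not overlap (8.24 to 8.74 against 8.92 to 9.04).

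The members differed from array to array within the pancreatectomy group. On pancreatectomy replicate 1, 14 of 32 members were above the highest sham array (43.8%, against 13.9% of all features on that array), 9 of them antiviral effectors. On pancreatectomy replicate 3 there were 12 (37.5%, against 15% of all features), of which 5 were of antigen presentation and 5 were antiviral effectors. On replicates 2 and 4 there were 1 and 2 (3.12% and 6.25%, against 26.1% and 18.9%). On replicate 2, 15 members were below the lowest sham array (46.9%, against 17.6% of all features).

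By role, the array with the highest values was not the same one. The median of the antiviral effectors lay 0.49 above the sham mean on pancreatectomy replicate 1, -0.30 on replicate 2, -0.02 on replicate 3 and -0.13 on replicate 4. On sham replicates 1 to 4 it was -0.04, -0.03, 0.41 and -0.26. The effectors were thus highest on pancreatectomy replicate 1, with sham replicate 3 next. The median of the antigen presentation genes was -0.04, -0.45, 0.66 and -0.03 on pancreatectomy replicates 1 to 4, against -0.10, 0.13, -0.15 and 0.09 on sham replicates 1 to 4. That group had its single high array in pancreatectomy replicate 3. All 6 antigen presentation genes varied more between pancreatectomy than between sham arrays, with a median SD of 0.56 against 0.20. Over all 32 members this held for 20 (62.5%, against 43.9% of all features).

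**Figure D3:**
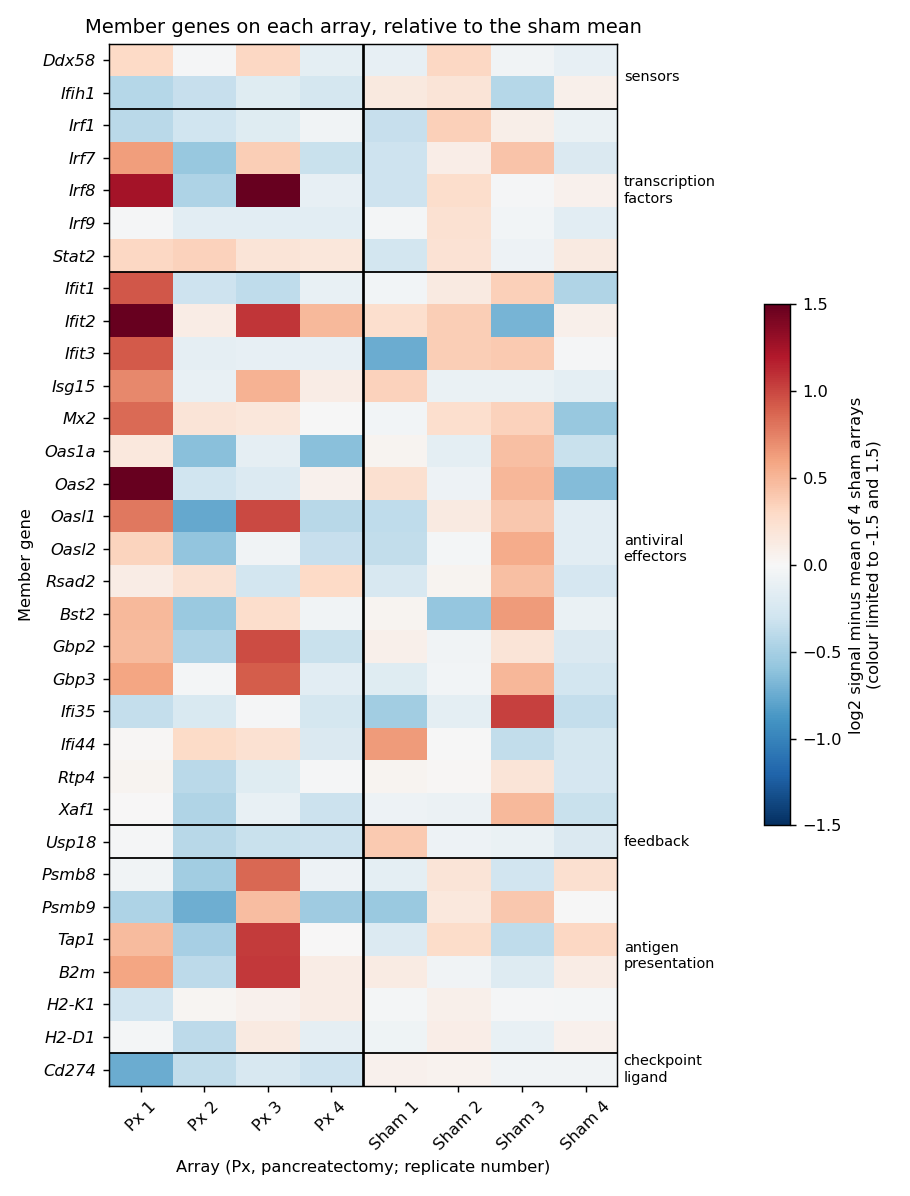
Each of the 32 measured members (rows, by role) on 4 pancreatectomy arrays (left) and 4 sham arrays (right), as log2 signal minus the mean of the 4 sham arrays, with the colour limited to 1.5 in either direction. Red columns stand out on pancreatectomy replicate 1 among the effectors and on replicate 3 among antigen presentation genes, while replicate 2 is mostly blue. Irf8 exceeds the colour scale on replicate 3.

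Markers of other cell types moved with these arrays. The mean of the 11 measured macrophage markers of 12 deviated from the sham mean by 1.95, -0.51, 1.46 and 0.02 on pancreatectomy replicates 1 to 4, and by -0.24 to 0.15 on sham arrays. Their summed signal was 10302 to 27445 on pancreatectomy arrays and 13650 to 15711 on sham arrays, and Cd163 was not measured. The 7 fibroblast markers lay 3.02 and 2.39 above the sham mean on pancreatectomy replicates 1 and 3, with a summed signal of 7046 to 112560 on pancreatectomy arrays and 5545 to 10891 on sham arrays. The mean of the 4 measured neutrophil markers of 7 was 2.29, 0.40, 1.92 and 0.85 on pancreatectomy replicates 1 to 4, and -1.08 to 0.92 on sham arrays, with S100a8 and S100a9 highest on the same replicates 1 and 3. Their summed signal was 12868 to 18305 on pancreatectomy arrays and 8744 to 18369 on sham arrays, and Cxcr2, Ngp and Ltf were not measured. That sum was set mostly by Csf3r, at 13.09 to 14.15 (log2) across the arrays, while S100a8, S100a9 and Ly6g reached at most 9.07. The 4 duct markers gave 1.52, -0.52, 1.00 and -0.55 on pancreatectomy replicates 1 to 4, and -0.48 to 0.67 on sham arrays. Replicates 1 and 3 were thus high in the means of macrophage, fibroblast, neutrophil and duct markers and in Irf8, Gbp2, Gbp3 and B2m. Isg15, Ifit2, Oasl1 and Tap1 were also highest on these replicates, and the remaining members were not highest on both. Single markers differed. The macrophage marker C1qa was 11.75 and 11.80 on replicates 1 and 3, within the sham range of 11.24 to 11.91. The neutrophil marker Ly6g was highest on replicates 1 and 3, but Csf3r was 13.81 and 13.65 there, against 14.15 on replicate 2. The duct markers Krt19, Spp1 and Sox9 were highest on replicates 1 and 3. Cftr was 4.54 and 3.70 there, against a sham mean of 4.64.

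Lymphoid markers were high on replicate 3 but not on replicate 1. Of 8 B and plasma cell markers 5 were measured and Ms4a1, Ighm and Pou2af1 were not, and their summed signal was 388 to 15482 on pancreatectomy arrays and 541 to 963 on sham arrays. The mean of the 6 measured T and NK cell markers of 10 was 2.03 on replicate 3 and -0.09 on replicate 1, relative to the sham mean. On replicate 3 Cd2 (9.80, against a sham mean of 3.52) and Gzma (10.55, against 5.16) were high, while Cd3e (13.43, against 13.70) and Cd4 (12.23, against 12.40) were below their sham means. Cd79b, a part of the B-cell receptor, was 12.85 on pancreatectomy replicate 3 and 3.28 to 6.08 on the other pancreatectomy arrays, against 4.33 to 5.36 on sham arrays. Of 8 dendritic cell markers 6 were measured, with a mean of 0.98 on replicate 3. There Ccr7 (9.01, against a sham mean of 4.55) and Flt3 (6.90, against 5.24) were high, Itgax (8.18, against 8.12) was close to its sham mean, and Siglech, Zbtb46 and Cd209a were below theirs. The part of these cells in the values of the members was not tested. Without pancreatectomy replicates 1 and 3, an alternative chosen after the values were seen, the median of the members was -0.23. In that fit 14 of 32 changes had the opposite sign and 0 passed the threshold (1 at an unadjusted p under 0.05 in limma). The share of all features at that unadjusted level is not given here, so the 1 is not read as particular to the members.

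**Figure D4:**
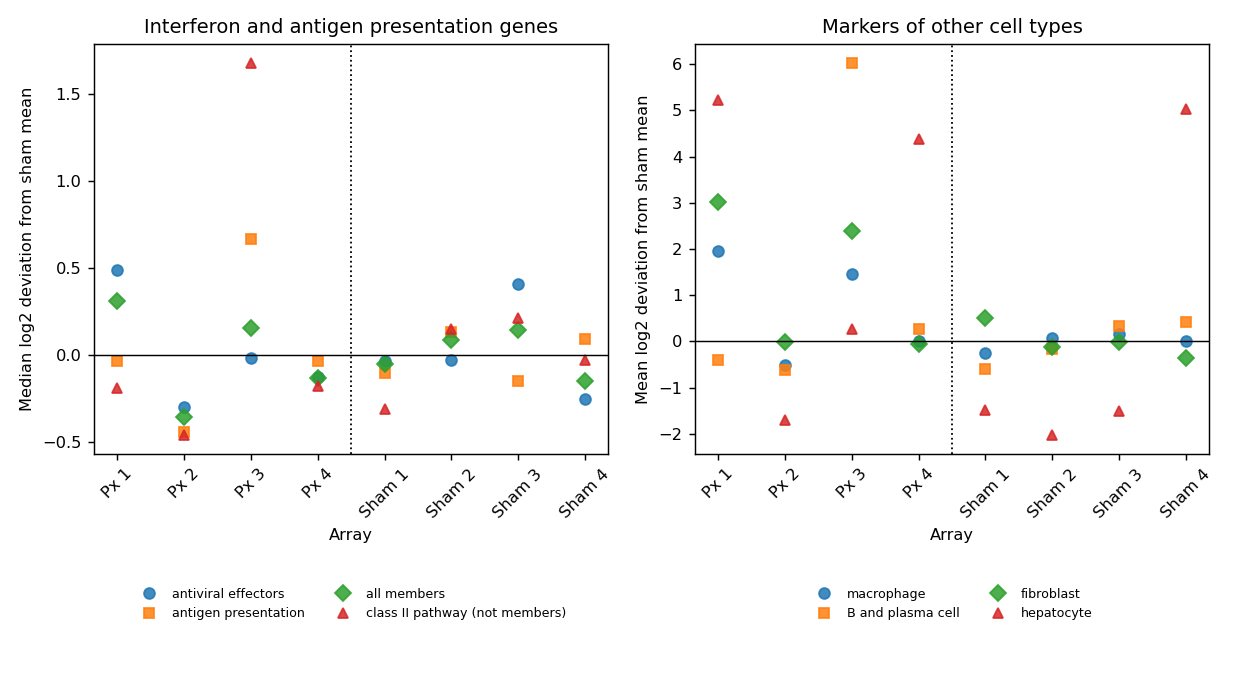
Left, the median log2 deviation from the sham mean of the antiviral effectors, the antigen presentation members, all members and the MHC class II genes on each array, with pancreatectomy arrays first. Right, the mean deviation of markers of macrophages, B and plasma cells, fibroblasts and hepatocytes on the same arrays. Pancreatectomy replicate 3 is high in class II (1.68), antigen presentation (0.66) and B-cell markers (6.04), and replicate 1 in effectors (0.49), fibroblast (3.02) and macrophage (1.95) markers.

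The rest of the pathway gave the same count. A list of 123 other genes of interferon signalling and antigen presentation, none of them members, held 111 that were measured. Of these 0 passed in limma, with 7 at an unadjusted p under 0.05 (6.31%, against 10.5% of all features), and the smallest adjusted p was 0.329. Their median change was 0.07. Of the interferons on this list, Ifna4, Ifnb1 and Ifng were above background on 0 of 8 arrays. Ifnl3, a type III interferon, was above background on all 8, at 7.45 to 7.90 on pancreatectomy arrays and 7.16 to 7.59 on sham arrays, with a change of 0.14 ± 0.17 (limma adjusted p = 0.792). The receptors were measured and showed no difference past the threshold, with changes of -0.19 ± 0.16 for Ifnar1, -0.09 ± 0.17 for Ifnar2, 0.15 ± 0.21 for Ifngr1 and 0.14 ± 0.24 for Ifngr2.

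Of this list, the genes with the smallest p on the higher side were Zbp1, Ifi204, Slfn8, Cgas and Cd86. Zbp1, a sensor of Z-form nucleic acid, had 7.47, 7.13, 8.11 and 7.05 on pancreatectomy arrays, against 6.61, 6.97, 6.09 and 6.64 on sham arrays. Every pancreatectomy array was above every sham array, which held for 2.99% of all features in this direction, and the change was 0.86 ± 0.28 (limma adjusted p = 0.329). Ifi204 had 9.33, 7.85, 9.12 and 7.73 on pancreatectomy replicates 1 to 4, against 7.55, 7.58, 7.93 and 7.44 on sham arrays, and a change of 0.88 ± 0.37. Like Irf8 it was high on pancreatectomy replicates 1 and 3, and on replicates 2 and 4 it lay within the sham range. Cd86, a costimulatory ligand, had 5.70, 4.76, 7.13 and 5.30 on pancreatectomy arrays, against 4.68, 4.92, 5.24 and 4.56 on sham arrays, and a change of 0.87 ± 0.45. Its high array was pancreatectomy replicate 3. Slfn8 had a change of 0.92 ± 0.40 and Cgas, the cytosolic DNA sensor, 0.35 ± 0.16.

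On the lower side stood Trim21, Irgm2, Jak2 and Adar. Trim21, a cytosolic antibody receptor, had 9.13, 9.39, 9.38 and 9.47 on pancreatectomy arrays, against 9.72, 9.84, 9.63 and 9.65 on sham arrays. The groups did not overlap, and the change was -0.37 ± 0.14 (limma adjusted p = 0.408). Irgm2, an immunity-related GTPase, had -0.33 ± 0.13 and did not overlap either. Every pancreatectomy array was below every sham array for 3 of 111 measured genes of the list, and for 5.3% of all features. Jak2, a JAK kinase that acts with surface receptors, had -0.45 ± 0.20, and Adar, an RNA-editing enzyme, -0.38 ± 0.17. With array weights 1 gene of this list passed, on the higher side.

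The MHC class II pathway, by which dendritic cells, macrophages and B cells present antigen to helper T cells, had all 10 measured genes above 0, with a median of 0.28 and 0 past the threshold, though the lowest change, 0.08, was smaller than the shift between the scalings. Its median was -0.19, -0.46, 1.68 and -0.18 on pancreatectomy replicates 1 to 4, against -0.31, 0.15, 0.21 and -0.03 on sham replicates 1 to 4. The high value was that of pancreatectomy replicate 3, where the B-cell markers were high, and the other pancreatectomy arrays were below the sham mean. Cd74, the class II invariant chain, had 11.99, 11.65, 13.81 and 11.99 on pancreatectomy arrays, against 11.95, 12.30, 12.65 and 12.16 on sham arrays. By contrast the 19 measured other genes of the class I pathway had a median of -0.11, with 8 above 0.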

How the data were processed

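Total RNA of isolated mouse islets was measured on 8 one-colour Cy3 arrays of 1 slide, 4 per group. Both groups lie in each of 2 slide rows, but each has its own slide columns, 2 per group, and the effect of column cannot be told apart from that of the operation. Deposited spot intensity is linear, and background and spatial trend were removed from it per the file headers, which name Feature Extraction 10.7.3.1, where the submitters' processing notes have version 9.1. The authors' deposited table gives 1 log2 average and 1 raw intensity average per group, whose header names GeneSpring GX 12.5 and a shift to the 75th percentile. It served for gene names, mm9 positions and a check of differences.

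From log2 processed signal the 75th percentile of the array was subtracted and the mean percentile over arrays added back. Control and outlier spots were left out and spots of a probe averaged. A probe was kept if well above background on at least 4 arrays with at least 3 values per group, and a gene is its brightest kept probe, so levels of different genes are not compared. Symbols were updated through Entrez IDs with a GRCm38 table (30994 of 33325 probes matched). The test was that of limma 3.58.1 (R 4.3.3), with Benjamini-Hochberg adjustment over 30870 features at 0.05. Only the limma step was also run on simulated data with independent arrays. That run does not check the filter, the scaling, the choice of probe or arrays that stand apart.

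The members and lists were chosen with earlier results of these data known. All 34 members are named. Values by array are given for the 6 largest changes, for the brightest member of a role, and for others chosen after their values were seen. Of the wider list, the 5 genes with the smallest p in each direction are named, except 1 that is not reported here. The number of arrays limits precision, and the median SE was 0.26 for members and 0.22 for all features. Pairs of arrays within a group correlated across genes with r from 0.96 to 0.993. Normexp used the median spot signal, since the files used here hold no mean signal. Alternatives were median and quantile scaling, normexp, both filters, the mean of probes, the slide row as a block, array weights, each array left out, and sets of arrays left out.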

Additional observations from a re-analysis of the deposited data

Results flagged for a closer look

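In 5 of 64 groups of 4 arrays, 1 array stood apart from the other 3 by a gap that took most of the group's range (Dixon's ratio, at its 95% critical value). Chance flags about 1 in 20 groups. In the pancreatectomy group these were Ifit3 (ratio 0.9835) and Irf9 (ratio 0.9465), both with replicate 1 high, at 8.54 for Ifit3 and 10.16 for Irf9. In the sham group they were Isg15 (ratio 0.9069, replicate 1 at 9.14), H2-K1 (ratio 0.9119, replicate 2 at 15.11) and Ddx58 (ratio 0.8432, replicate 2 at 9.80).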

How the results depend on the processing

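No member passed in any alternative with a test, at a smallest adjusted p of 0.0721 (limma with array weights, 7 members at an unadjusted p under 0.05). That fit also called more of all features than the main fit, as given below. The share of all features at that unadjusted level is not given here, so the 7 are not read as particular to the members. Of 32 members, 10 kept their sign in every alternative run, which are Stat2 and Ifit2 above 0 and Ifih1, Irf1, Irf9, Oas1a, Rtp4, Usp18, Psmb9 and Cd274 below it. No paired analysis was possible because the labels give slide positions and no replicate numbers shared by the groups. The median change of the members turned to -0.077 with median scaling, -0.12 without the 3 arrays with liver transcripts, -0.38 with pancreatectomy replicate 2 against sham replicates 1 to 3, and -0.23 with pancreatectomy replicates 2 and 4 against 4 sham arrays, the last chosen after seeing the data. It ran from -0.12 (without pancreatectomy replicate 1) to 0.15 when each array was left out.

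Over all features, the count past the threshold (195, with 169 higher and 26 lower) was 60 with normexp (54 and 6), 72 with no filter (68 and 4), 126 with the filter on all 8 arrays (93 higher), 125 with the slide row as a block (11 lower) and 1118 with array weights (531 and 587), where 1 gene of the wider list, a higher one, passed. Median scaling gave 48 lower. The count was 0 (0 higher and 0 lower) without the 3 arrays with liver transcripts (1354 at an unadjusted p under 0.05) and 0 for pancreatectomy replicate 2 against sham replicates 1 to 3 (1649 at an unadjusted p under 0.05, with the lone array assumed to vary like the others). It was 15 (14 and 1) for pancreatectomy replicates 2 and 4. Leaving out each array gave 59 to 185, with 56 to 166 higher and 3 to 32 lower, lowest without sham replicate 2. The cause of these shifts was not tested.

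Log2 changes of members that turned sign were, with median scaling, Ddx58 -0.0097, Irf7 -0.098, Ifit1 -0.091, Rsad2 -0.034, Bst2 -0.086, Ifi44 -0.043 and Psmb8 -0.068. With quantile scaling they were Irf7 -0.069, Ifit1 -0.069 and Ifi44 -0.014, with normexp Ifi44 -0.035, with the mean of probes Ddx58 -0.047 and Xaf1 0.19 and with array weights Oasl2 0.059 and Ifi35 0.060. Without the liver arrays they were Irf7 -0.17, Ifit1 -0.49, Ifit3 -0.13, Mx2 -0.0040, Oas2 -0.47, Rsad2 -0.11, Bst2 -0.18 and H2-K1 0.037. With pancreatectomy replicate 2 alone they were Ddx58 -0.058, Irf7 -0.64, Irf8 -0.45, Ifit1 -0.46, Ifit3 -0.14, Isg15 -0.16, Oas2 -0.52, Oasl1 -0.82, Bst2 -0.59, Gbp2 -0.53, Gbp3 -0.12, Psmb8 -0.44, Tap1 -0.40, B2m -0.36 and H2-K1 0.021. With pancreatectomy replicates 2 and 4 they were Ddx58 -0.082, Irf7 -0.45, Irf8 -0.30, Ifit1 -0.21, Ifit3 -0.13, Oas2 -0.12, Oasl1 -0.59, Bst2 -0.30, Gbp2 -0.40, Gbp3 -0.094, Psmb8 -0.30, Tap1 -0.25, B2m -0.14 and H2-K1 0.067. Within slide row 1 they were Oasl2 0.066, Gbp2 -0.0039, Ifi35 0.041, Ifi44 -0.16, Psmb8 -0.31 and Tap1 -0.048, and within slide row 2 Irf7 -0.087, Ifit1 -0.20, Ifit3 -0.31, Rsad2 -0.090, Bst2 -0.16, H2-K1 0.11 and H2-D1 0.020. When each array was left out, the members whose sign turned ranged as Irf7 -0.18 to 0.22, Ifit1 -0.27 to 0.17, Ifit3 -0.13 to 0.27, Oas2 -0.15 to 0.50, Oasl1 -0.13 to 0.46, Oasl2 -0.33 to 0.021, Bst2 -0.16 to 0.25, Gbp2 -0.11 to 0.37, Ifi35 -0.39 to 0.12, Ifi44 -0.041 to 0.29, Psmb8 -0.21 to 0.25, Tap1 -0.0061 to 0.51 and H2-K1 -0.067 to 0.065.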

Other observations

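Among genes of the wider list that were too dim to be tested, H2-DMb2, a class II chaperone subunit, was above background on pancreatectomy replicate 3 alone, at 7.21, and Ido1, the interferon-induced enzyme that degrades tryptophan, on the same array alone, at 4.57.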
